A study of Homo sapiens with 18 samples.

Results

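U251 cells given an siRNA against MPS1 were compared at 24 h and at 6 h after transfection. The comparison rests on 4 of the 18 arrays of the series, 2 titled siMPS1_24h and 2 titled siMPS1_6h, which were chosen by title alone. U251 is an established human glioblastoma cell line. The series measured it on Affymetrix human expression arrays at 6, 24 and 48 h in 3 cultures: cells with no treatment (Control), cells transfected with a negative siRNA (siNeg) and cells transfected with the MPS1 siRNA (siMPS1), with 2 arrays per culture and time. Each siRNA was used at 2 pmol, and 250 ng of total RNA per array was labelled with biotin. The Control cells are described as untransfected, so the transfection itself is shared by siMPS1 and siNeg but not by Control, while siRNA sequences and reagent are not stated in the labels. The siRNA was given to whole cultures of 1 cell line. Each array is a bulk sample, in which fewer cells expressing a gene and less RNA per cell cannot be told apart. The labels do not say whether the 2 arrays of a group come from separate transfections, so the p-values below measure only the spread between these arrays, which may be technical.

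MPS1, encoded by TTK, is a protein kinase that acts at kinetochores not yet attached to the spindle, where it recruits BUB1 and the MAD1 and MAD2 proteins and so delays anaphase until every chromosome is attached. TTK belongs to a large group of genes that are transcribed mainly in G2 and mitosis. Many of these genes carry CCAAT boxes, which bind the factor NF-Y, and a cell cycle genes homology region (CHR) just upstream of their start, elements through which the DREAM complex holds them low early in the cycle and B-MYB and FOXM1 raise them later.

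Expression levels are given throughout as log2(signal + 3), differences between times as 24 h minus 6 h on the same log2 scale, and errors as standard errors (SE) of limma with n = 2 arrays per group. An adjusted p is Benjamini-Hochberg adjusted over the 7828 genes tested, two-sided, and a gene is said to have risen, fallen or been called when it was under 0.05. A change of the culture is a gene called in Control cells between the same times. Under silencing such a gene was taken as kept when siMPS1 cells changed in the same direction and their change was not called different from that of siNeg cells, which does not show that the changes were equal. It was weakened or enlarged when the difference between the siMPS1 and siNeg changes was called against or along its direction, lost when siMPS1 cells had no called change and that difference was called, reversed when siMPS1 cells changed the opposite way, and undecided otherwise.

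TTK itself was lower in siMPS1 cells than in the other cultures at both times and still rose within them. The siMPS1 arrays read 4.07 and 4.27 at 6 h and 5.23 and 4.74 at 24 h. The siNeg arrays read 5.48 and 5.71, then 6.86 and 6.89, and the Control arrays 5.34 and 5.72, then 7.13 and 6.81. At each time both siMPS1 arrays lay below all 4 arrays of the other cultures, and all 4 siMPS1 arrays lay below every siNeg and Control array at 24 h. TTK rose by 0.82 in siMPS1 cells (SE 0.21, adjusted p = 0.00299), against 1.28 in siNeg and 1.44 in Control cells. The difference between the siMPS1 and siNeg rises, -0.45 (SE 0.29), was not called (adjusted p = 0.42), nor was that against Control, -0.62 (adjusted p = 0.152). Without siMPS1 24 h replicate 1 the rise was 0.58 with an adjusted p of 0.061, and fitting the siMPS1 arrays of these times alone gave an adjusted p of 0.0572.

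The arrays of a group correlated from 0.983 to 0.990 and held 0 identical columns. Alu signal, a measure of repeat-containing RNA, averaged 12.96 in siMPS1 cells at 6 h and 12.77 at 24 h, against 12.42 to 12.62 in the other groups at these times. The 18S probe set read 11.15 in siNeg cells at 24 h and 10.08 to 10.37 elsewhere, and actin 3′ signal was 12.51 in siMPS1 cells at 6 h against 12.04 to 12.13 elsewhere. The dap control signal went from 6.27 at 6 h to 7.13 at 24 h in siMPS1 cells. It went from 6.57 to 7.12 in siNeg and from 7.21 to 6.76 in Control cells. Actin 3′ minus 5′ signal went from 0.25 to 0.43 in siMPS1, 0.29 to 0.41 in siNeg and 0.17 to 0.31 in Control cells. The part of these signals in the results was not tested. Of 9 glial and mesenchymal markers, 6 (VIM, NES, CD44, SOX2, SOX9 and EGFR) lay above the array median on all 12 arrays of the 6 and 24 h groups, and 2 (S100B and CHI3L1) on none. GFAP, the astrocyte filament, lay above it on 3 arrays. Of 6 epithelial markers, 3 (KRT8, KRT18 and CLDN4) lay above it on all 12 arrays and 3 on none, and the mean level of the 6 was 5.46 and 5.94 on the siMPS1 arrays at 6 h and 4.9 and 4.91 at 24 h; their part in the results was not tested. Of 5 neuronal markers SYT1 lay above it on all 12 arrays and 4 on none. None of 8 blood and endothelial markers did so on any array.

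Between 6 and 24 h, 3714 of the 7828 genes (47.4%) changed in siMPS1 cells. In 5488 genes (70.1%) the arrays of the 2 times did not overlap. Of the called genes, 2064 rose (26.4% of genes tested) and 1650 fell (21.1%), and the median difference over all genes was 0.01. At least 2-fold changes were called for 339 rises and 358 falls. The Control cells had 3372 called changes (43.1%), with 2125 rises (27.1%) and 1247 falls (15.9%), and the siNeg cells had 3467 (44.3%), with 1972 rises (25.2%) and 1495 falls (19.1%). The rises and falls of each gene list below are to be read beside these shares. Scaling moved these splits, since centring each array on its median gave 2536 rises and 1244 falls in siMPS1 cells, with a median over all genes of 0.12, but 1296 rises and 1937 falls in Control cells, with a median of -0.04. Quantile normalization gave 1792 rises and 1433 falls in Control cells.

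Most called changes of the culture were kept under silencing, and how many were weakened or lost depended on the culture used as reference. Of the 3372 changes, 2025 (60.1%) were kept, 31 were weakened, 69 enlarged, 45 lost and 155 reversed, and 1047 were undecided. With the siMPS1 change set against that of Control instead of siNeg cells, 1802 (53.4%) were kept, 114 weakened, 209 enlarged, 387 lost (11.5%) and 705 undecided. That test reuses the Control arrays that chose these genes, which by itself pushes the difference against their direction. The test against siNeg does not use those arrays. Against siNeg, the reference used from here on, the kept changes comprised 1232 rises and 793 falls. Changes called in the same direction in siMPS1 cells numbered 2125 (63.0%), and the same count for siNeg cells was 2283 (67.7%). The median size of the rises was 0.59 in Control, 0.45 in siNeg and 0.43 in siMPS1 cells, and that of the falls was -0.57, -0.53 and -0.47. Since the genes were chosen by their call in Control cells, the Control medians are enlarged by that choice. They do not show a weaker change in the transfected cultures. Among the 2283 changes called alike in Control and siNeg cells, 1861 (81.5%) were called the same way in siMPS1 cells. The undecided genes were dimmer, with a median level of 6.52 against 7.36 for the kept ones.

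**Figure D1:**
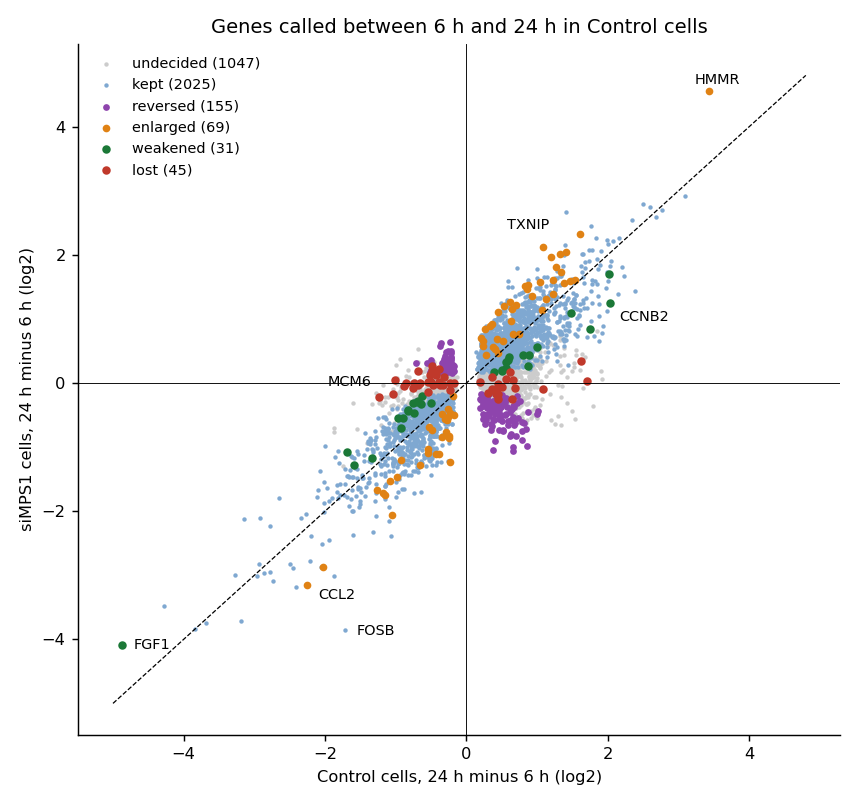
Change from 6 to 24 h of each culture change in Control cells (x axis, log2) against siMPS1 cells (y axis, log2), 1 point per gene, coloured by its class, with the dashed line marking equal change. HMMR lies above the line at 3.44 and 4.55, CCNB2 below it at 2.03 and 1.24, and MCM6 fell by 1.05 in Control cells but lies near 0 on the y axis.

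Among called genes with separate arrays, HMMR rose most in siMPS1 cells and FGF1 fell most. HMMR, a spindle-associated hyaluronan receptor, read 4.69 and 4.48 at 6 h and 9.42 and 8.86 at 24 h, a rise of 4.55 or 23.4-fold (SE 0.18, adjusted p = 1.48e-12). Next came CDCA3, which triggers WEE1 degradation at mitotic entry, at 2.92, the spindle assembly factor DLGAP5 at 2.79 and the interstitial collagenase MMP1 at 2.75. DEPDC1, ARHGAP19, the mitotic kinesin KIF20A, PIMREG, the checkpoint kinase BUB1, the thioredoxin inhibitor TXNIP and the kinases AURKA and PBK rose by 2.70, 2.66, 2.58, 2.54, 2.45, 2.32, 2.26 and 2.26. These 12 are all changes of the culture, of which HMMR and TXNIP were enlarged and the other 10 kept.

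Among the falls, FGF1, a fibroblast growth factor, read 7.67 and 7.72 at 6 h and 3.13 and 4.08 at 24 h, a fall of 4.09 (SE 0.28, adjusted p = 1.36e-09). The AP-1 subunit FOSB fell by 3.85, the protease inhibitor SERPINA3 by 3.84, the chemokine CCL20 by 3.74 and INHBA, the activin A subunit, by 3.72. POSTN, a matricellular protein, KRT75, the monocyte chemokine CCL2, the YAP target ANKRD1, IGFBP5, CRIP2 and the EGF receptor ligand HBEGF fell by 3.47, 3.18, 3.15, 3.09, 3.01, 3.01 and 3.0. For IGFBP5 the falls in siNeg and Control cells were 3.01 and 2.96, and for SERPINA3 they were 3.74 and 3.85. FOSB read 2.07 and 2.30 at 24 h in siMPS1 cells, near the floor set by the pseudocount, and 3.39 and 3.15 in siNeg cells, without overlap. It fell 14.4-fold in siMPS1, 5.36-fold in siNeg and 3.28-fold in Control cells. The difference between the siMPS1 and siNeg falls, -1.43 (SE 0.59), was not called (adjusted p = 0.191). Of these 12 falls, CCL2 was enlarged, FGF1 weakened and the other 10 kept.

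Nearly all G2 and mitosis genes rose under MPS1 silencing, and most of these rises were kept. Of 61 genes of this list, which holds the cyclins, kinases and kinesins that carry cells into and through mitosis, 58 were measured and 54 of them rose in siMPS1 cells, against 26.4% of all genes tested. The same number rose in siNeg and in Control cells. The median difference was 1.27 in siMPS1, 1.25 in siNeg and 1.40 in Control cells, while the medians over all genes were 0.01, 0.04 and 0.12. By class, 43 were kept, 8 enlarged, 2 weakened and 2 undecided. CDC25A, the phosphatase that opens S phase, was the 1 member that fell (-0.70, adjusted p = 0.0177, but 0.244 without siMPS1 24 h replicate 1, at -0.40). MYBL2, KIF22 and INCENP were not called, at 0.09, 0.29 and 0.49.

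Promoters of this list are printed because 68.0% of those found held a CHR motif and 78.0% a CCAAT box. The sequences are the 250 bases before the RefSeq start, GRCh38.p14, 5′ to 3′ on the plus strand, with CHR and CCAAT motifs of either strand in capitals, and they belong to 2 genes kept under silencing (CCNB1 and KIF20A), 1 weakened (CCNB2) and 1 enlarged (HMMR).
CCNB1, chr5:69166900-69167149: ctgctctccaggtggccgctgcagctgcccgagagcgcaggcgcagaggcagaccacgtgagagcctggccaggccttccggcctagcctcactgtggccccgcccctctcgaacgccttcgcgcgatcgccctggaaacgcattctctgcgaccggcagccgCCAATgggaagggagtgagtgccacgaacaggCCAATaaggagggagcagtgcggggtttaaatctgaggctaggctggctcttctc
KIF20A, chr5:138178862-138179111: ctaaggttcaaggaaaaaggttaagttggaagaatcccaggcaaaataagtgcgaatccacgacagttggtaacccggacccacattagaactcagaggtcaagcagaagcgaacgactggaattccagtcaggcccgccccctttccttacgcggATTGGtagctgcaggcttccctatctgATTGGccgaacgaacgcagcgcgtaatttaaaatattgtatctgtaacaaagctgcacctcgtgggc
CCNB2, chr15:59104896-59105145: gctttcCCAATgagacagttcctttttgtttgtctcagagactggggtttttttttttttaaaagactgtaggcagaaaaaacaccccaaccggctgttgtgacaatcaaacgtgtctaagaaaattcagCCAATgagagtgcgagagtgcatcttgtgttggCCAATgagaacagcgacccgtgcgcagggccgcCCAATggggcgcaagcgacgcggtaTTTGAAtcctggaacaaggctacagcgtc
HMMR, chr5:163460382-163460631: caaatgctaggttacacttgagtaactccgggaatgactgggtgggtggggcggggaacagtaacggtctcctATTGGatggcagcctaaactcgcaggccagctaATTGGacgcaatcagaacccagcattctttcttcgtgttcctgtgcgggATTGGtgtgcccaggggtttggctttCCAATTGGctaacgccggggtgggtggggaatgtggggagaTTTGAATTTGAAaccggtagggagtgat

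Motifs were searched on both strands of the 300 bases from 250 before to 50 after the start, as exact letters: TTTGAA for the CHR and CCAAT for the CCAAT box. In the printed stretches CCNB2 has 1 CHR, 29 bases before its start, and 4 CCAAT boxes, while HMMR has 2 abutting CHR motifs, at 28 and 22 bases, and 5 CCAAT boxes, of which the last 2 overlap on opposite strands. CCNB1 and KIF20A have 2 CCAAT boxes each and no exact TTTGAA there. Of the 58 measured genes of the list, 50 had a promoter in the table, and 34 of these held a CHR, against 15.4% of all 27305 promoters and 9.61% of those of tested genes. A CCAAT box was found in 35.7% of all promoters and 38.0% of those of tested genes. It was also found in 57.1% of spindle checkpoint and kinetochore promoters and 59.5% of S phase and replication promoters, lists described below. Both motifs together stood in 58.0% of the G2 and mitosis list, 6.08% of all and 4.14% of those of tested genes. Of the genes that rose at least 2-fold in siMPS1 cells, 75 of 282 with a promoter (26.6%) held a CHR, and of those that fell at least 2-fold, 8.07%. A match is a description of the letters, not of a bound site.

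CCNB1, cyclin B1, and AURKA showed the kept rise with arrays close together. CCNB1 read 7.34 and 7.23 at 6 h and 9.52 and 9.51 at 24 h in siMPS1 cells, a rise of 2.24 (SE 0.07, adjusted p = 7.19e-14), against 2.10 in siNeg and 1.99 in Control cells. AURKA, the spindle pole kinase, went from 7.04 and 6.77 to 9.17 and 9.17, a rise of 2.26 against 2.14 and 2.16. KIF20A, a kinesin of cytokinesis, rose by 2.58, 2.85 and 2.68, and DLGAP5 by 2.79, 2.66 and 2.49. For none of the 4 was the difference against siNeg called (adjusted p from 0.362 to 0.648).

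CCNB2, cyclin B2, was the mitotic gene whose rise was weakened most clearly. It read 7.35 and 7.05 at 6 h and 8.46 and 8.44 at 24 h in siMPS1 cells, but 7.20 and 7.14, then 9.48 and 9.46 in siNeg and 7.44 and 7.48, then 9.45 and 9.53 in Control cells. siMPS1 and siNeg arrays overlapped at 6 h, and at 24 h both siMPS1 arrays lay about 1 log2 unit below the rest. The rise was 1.24 in siMPS1 against 2.30 in siNeg cells, a difference of -1.06 (SE 0.11, adjusted p = 5.93e-05), and -0.78 against Control (adjusted p = 0.000294). This call held with each of the 12 arrays left out and in every setting tried, including a fold limit. KIF4A, a chromosome-bound kinesin, rose by 1.08 against 1.51 in siNeg cells, but its difference of -0.42 (adjusted p = 0.0401) lost its call on leaving out any 1 of 9 of the 12 arrays, with a highest adjusted p of 0.144 without siNeg 6 h replicate 1 (-0.38).

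The 8 enlarged rises of this list were KIF11, ECT2, KIF18B, CCNA2, CDK1, KIF23, NUSAP1 and HMMR. KIF11, the kinesin that pushes spindle poles apart, read 6.67 and 6.61 and then 7.91 and 7.81 in siMPS1 cells, against 7.19 and 7.07, then 7.27 and 7.49 in siNeg cells. The siMPS1 arrays were below siNeg at 6 h and above it at 24 h. The rises were 1.22, 0.25 and, in Control cells, 0.71, and the difference against siNeg was 0.97 (SE 0.13, adjusted p = 0.000589), which held with each array left out. ECT2, the cytokinesis exchange factor, rose by 1.15 against 0.62 in siNeg and 0.65 in Control cells, a difference of 0.53 (adjusted p = 0.0121) that was lost on leaving out any 1 of 3 arrays (up to 0.0593, without siMPS1 6 h replicate 2, at 0.48). KIF18B rose by 0.76 against 0.05 in siNeg but 0.67 in Control cells, close to the siMPS1 rise, with a difference from siNeg of 0.71 (adjusted p = 0.019), lost on leaving out any 1 of 5 arrays (up to 0.101, without siNeg 6 h replicate 1, at 0.62). For HMMR the difference of 0.98 (adjusted p = 0.0448) was lost on leaving out any 1 of 11 of the 12 arrays (up to 0.164, without siMPS1 24 h replicate 1, at 0.70) and was 0.25 (adjusted p = 0.489) with its probe sets averaged. CCNA2, cyclin A2, rose by 1.60, 0.92 and 1.22 in siMPS1, siNeg and Control cells, and its kinase CDK1 by 1.14, 0.63 and 1.07, so that for CDK1 too the siNeg rise stood apart. Both differed from siNeg, by 0.68 and 0.51 (adjusted p = 0.0323 and 0.0237, lost on leaving out any 1 of 6 and 5 arrays, up to 0.118 without siMPS1 24 h replicate 1, at 0.54, and 0.106 without siNeg 24 h replicate 1, at 0.46). The cytokinesis kinesin KIF23 rose by 1.35, 0.85 and 0.93, and the spindle protein NUSAP1 by 1.73, 1.37 and 1.34. They differed from siNeg by 0.50 and 0.36 (adjusted p = 0.0351 and 0.0265, each lost on leaving out any 1 of 7 arrays, up to 0.14 without siNeg 24 h replicate 1, at 0.44, and 0.123 without siNeg 6 h replicate 1, at 0.32).

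**Figure D2:**
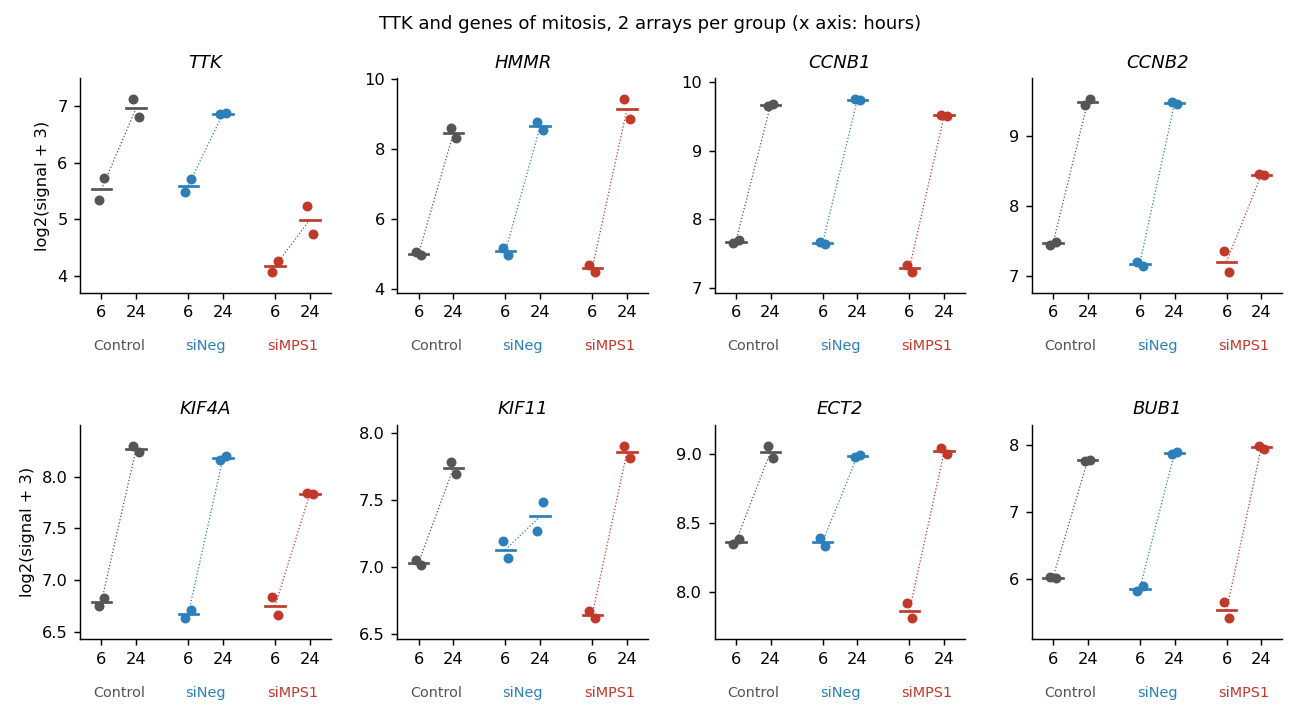
Level (log2(signal + 3), y axis) of TTK and 7 mitotic genes on each array at 6 and 24 h in Control, siNeg and siMPS1 cells, with points for arrays, bars for group means and dotted lines joining the means. TTK is lowest in siMPS1 cells at both times, CCNB2 reaches 8.46 and 8.44 at 24 h there against over 9 in the other cultures, and KIF11 starts lower in siMPS1 cells at 6 h.

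Most spindle checkpoint and kinetochore genes other than TTK rose as well. Of 43 listed, 33 were measured, and 24 rose and 1 fell in siMPS1 cells, against 23 rises in each of the other cultures. A CHR stood in 13 of the 28 promoters found for this list (46.4%). The median difference was 0.72, against 0.63 in siNeg and 0.56 in Control cells. BUB1, which MPS1 brings to kinetochores, read 5.65 and 5.40, then 8.0 and 7.95, and rose by 2.45 (SE 0.10, adjusted p = 2.1e-12), against 2.04 in siNeg and 1.76 in Control cells. BUB1B, part of the complex that blocks anaphase, rose by 2.15 against 1.64 and 1.40, and the difference from siNeg, 0.51, was just short of a call (adjusted p = 0.0527). CENPE and CENPF, which link kinetochores to microtubules, rose by 1.84 and 1.81, against 1.76 and 1.69 in siNeg and 1.89 and 2.205 in Control cells. The differences from siNeg, 0.09 and 0.12, were not called (adjusted p = 0.762 and 0.647), and of those from Control that of CENPF was (-0.40, adjusted p = 0.0331).

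MAD1L1, the partner that holds MAD2 at kinetochores, fell in all 3 cultures, by 1.10 in siMPS1, 0.68 in siNeg and 0.39 in Control cells. Its siMPS1 arrays read 8.52 and 8.63, then 7.44 and 7.51, below the 7.76 and 7.86 of siNeg at 24 h. The difference from siNeg was -0.43 (SE 0.11, adjusted p = 0.0415), and it was lost on leaving out any 1 of 11 of the 12 arrays (up to 0.149, without siNeg 6 h replicate 1, at -0.39). ZWINT, a kinetochore scaffold protein, rose from 9.10 and 9.08 to 10.25 and 10.33, more than in siNeg cells by 0.57 (adjusted p = 0.0165, lost on leaving out any 1 of 4 arrays, up to 0.0988 without siNeg 6 h replicate 1, at 0.47).

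The S phase and replication genes moved both ways, and 5 of them differed from siNeg cells, all upward, a direction called for 1.89% of all genes. Of 52 listed genes 49 were measured, and 17 rose and 12 fell in siMPS1 cells, where 26.4% and 21.1% of all genes tested did. The counts were 10 rises and 15 falls in siNeg and 11 and 19 in Control cells. The median difference was 0.04 in siMPS1, -0.12 in siNeg and -0.10 in Control cells, and these signs were the same after quantile normalization and median centring. Their promoters seldom held a CHR (1 of 42), and 26.2% held the E2F letters GGCGGGAA, against 3.18% of all promoters and 5.42% of those of tested genes.

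MCM6, a subunit of the replicative helicase, was a fall of the culture that was lost under silencing. It read 8.71 and 8.74 at 6 h and 8.49 and 8.62 at 24 h in siMPS1 cells, against 8.74 and 8.77, then 7.86 and 7.61 in siNeg and 8.71 and 8.93, then 7.83 and 7.71 in Control cells. All 4 siMPS1 arrays lay above every 24 h array of the other cultures. Its siMPS1 difference of -0.17 (SE 0.10) was not called (adjusted p = 0.187), while siNeg and Control cells fell by 1.02 and 1.05, and the difference from siNeg was 0.85 (SE 0.14, adjusted p = 0.00253). UNG, the uracil DNA glycosylase, read 8.22 and 8.34, then 8.28 and 8.19 in siMPS1 cells, against 8.55 and 8.47, then 7.68 and 7.62 in siNeg cells, and differed by 0.82 (SE 0.12, adjusted p = 0.00109). Its siMPS1 arrays were lower than siNeg at 6 h and higher at 24 h. The calls of MCM6 and UNG held with each array left out and in each setting without a fold limit.

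The other 3 of the 5 were less stable. MCM3, another helicase subunit, fell by 0.47 against 0.95 in siNeg cells (difference 0.48, adjusted p = 0.0376, lost on leaving out any 1 of 9 arrays, up to 0.137 without siNeg 24 h replicate 2, at 0.41). RRM1, a ribonucleotide reductase subunit, rose by 0.44 with -0.01 in siNeg cells (difference 0.45, adjusted p = 0.0277, lost on leaving out any 1 of 8 arrays, up to 0.105 without siNeg 24 h replicate 1, at 0.43). RFC4, of the clamp loader, differed by 0.32 (adjusted p = 0.0404), lost on leaving out any 1 of the 12 arrays (up to 0.151 without siNeg 24 h replicate 1, at 0.29). RRM2, RPA1, DTL and CHAF1A had the smallest p of the list in siMPS1 cells, with RRM2 and RPA1 rising by 0.81 and 0.58, and DTL and CHAF1A falling by 0.76 and 0.93. Of the replication-dependent histones only 8 of 51 were measured, and H2BC12 and H2BC21 fell by 0.92 and 0.81, the latter with an adjusted p of 0.0404 that reached 0.302 without siMPS1 6 h replicate 1, at -0.49.

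Immediate early and AP-1 genes, which code for transcription factors and secreted signals switched on within a short time of stimulation, fell between the times. Of 26 measured, 23 fell and 1 rose in siMPS1 cells (21.1% of all genes fell), against 19 falls in siNeg and 16 in Control cells. The median difference was -0.68, against -0.68 and -0.51. The AP-1 letters TGANTCA, searched on both strands, stood in 2 of the 18 promoters found for this list (11.1%), in 7.76% of all promoters, in 4.58% of those of tested genes and in 7.72% of those of genes that fell at least 2-fold. EGR1 read 8.39 and 8.45, then 5.94 and 5.88, and fell by 2.51 (SE 0.13, adjusted p = 2.26e-11), against 2.32 in siNeg and 2.04 in Control cells. The small Maf factor MAFF and the matricellular gene CCN1 fell by 1.65 and 1.88, and KLF2 by 1.32. The exception was IER3, which rose by 0.44 (adjusted p = 0.000141), and PLAUR, the urokinase receptor, was weakened, falling by 0.32 against 0.68 in siNeg cells (difference 0.36, adjusted p = 0.038, lost on leaving out any 1 of 8 arrays, up to 0.149 without siMPS1 6 h replicate 2, at 0.30).

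Inflammatory genes fell as well, with 13 of 22 measured lower in each culture, and CCL2 fell further under silencing. CCL2 read 10.51 and 10.58 at 6 h and 7.58 and 7.23 at 24 h in siMPS1 cells, against 10.23 and 10.24, then 8.42 and 8.28 in siNeg and 10.36 and 10.40, then 8.13 and 8.12 in Control cells. The siMPS1 arrays were the highest at 6 h and the lowest at 24 h. The falls were 3.15, 1.89 and 2.26, and siMPS1 differed from siNeg by -1.26 (SE 0.14, adjusted p = 7.01e-05) and from Control by -0.89 (adjusted p = 0.000468). TNFAIP3, an inhibitor of NF-kB signalling, and the cytokine LIF were kept, at falls of 2.45 and 2.78. The cytokine IL11 fell by 1.17, less than the 1.59 of Control cells by 0.42 (adjusted p = 0.00633) but without a called difference from siNeg (0.29, adjusted p = 0.0993). TNFAIP2 was the 1 member that rose (0.40, adjusted p = 0.00658, but 0.0533 without siMPS1 24 h replicate 1, at 0.35).

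A YAP list holds targets of this transcriptional coactivator and some genes of its pathway. Its genes fell in 11 of 17 measured cases and rose in 0 by limma (also 0 at an unadjusted p under 0.05), with 12 falls in siNeg and 11 in Control cells. ANKRD1 read 9.86 and 9.88, then 6.80 and 6.75, and fell by 3.09, against 2.72 and 2.74. F3, tissue factor, fell by 2.01, 2.21 and 2.02. GADD45B, a stress-induced regulator of kinase signalling, fell from 9.06 and 9.04 to 6.196 and 6.17, more than in siNeg cells (difference -0.70, SE 0.13, adjusted p = 0.00669), and with its probe sets averaged the difference was -0.53 (adjusted p = 0.0596). NT5E, the ecto-5′-nucleotidase CD73, fell from 8.07 and 7.96 to 7.40 and 7.27 in siMPS1 cells and had no called change in the other cultures, where siNeg read 8.24 and 8.23, then 8.33 and 8.33. Its difference from siNeg was -0.78 (SE 0.10, adjusted p = 0.000448), held with each array left out. TEAD1 and WWC1, pathway genes rather than targets, also differed, by -0.64 and 0.74 (adjusted p = 0.0493 and 0.0404). Each lost its call on leaving out any 1 of 10 arrays (up to 0.196 without siNeg 6 h replicate 1, at -0.52, and 0.17 without siNeg 24 h replicate 1, at 0.59).

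Growth factor feedback genes split, with 9 falls and 5 rises of 17 measured in siMPS1 cells and 9 and 5 in siNeg. HBEGF and the ERK phosphatase DUSP1 fell by 3.0 and 1.63, and the ETS factors ETV1 and ETV5 rose by 2.17 and 1.07. DUSP6, another ERK phosphatase, had no called change in siMPS1 cells (-0.19, adjusted p = 0.0541) and rose by 0.38 in siNeg cells. That difference of -0.57 was called (SE 0.11, adjusted p = 0.00675), but not with the probe sets of the gene averaged (-0.30, adjusted p = 0.189).

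**Figure D3:**
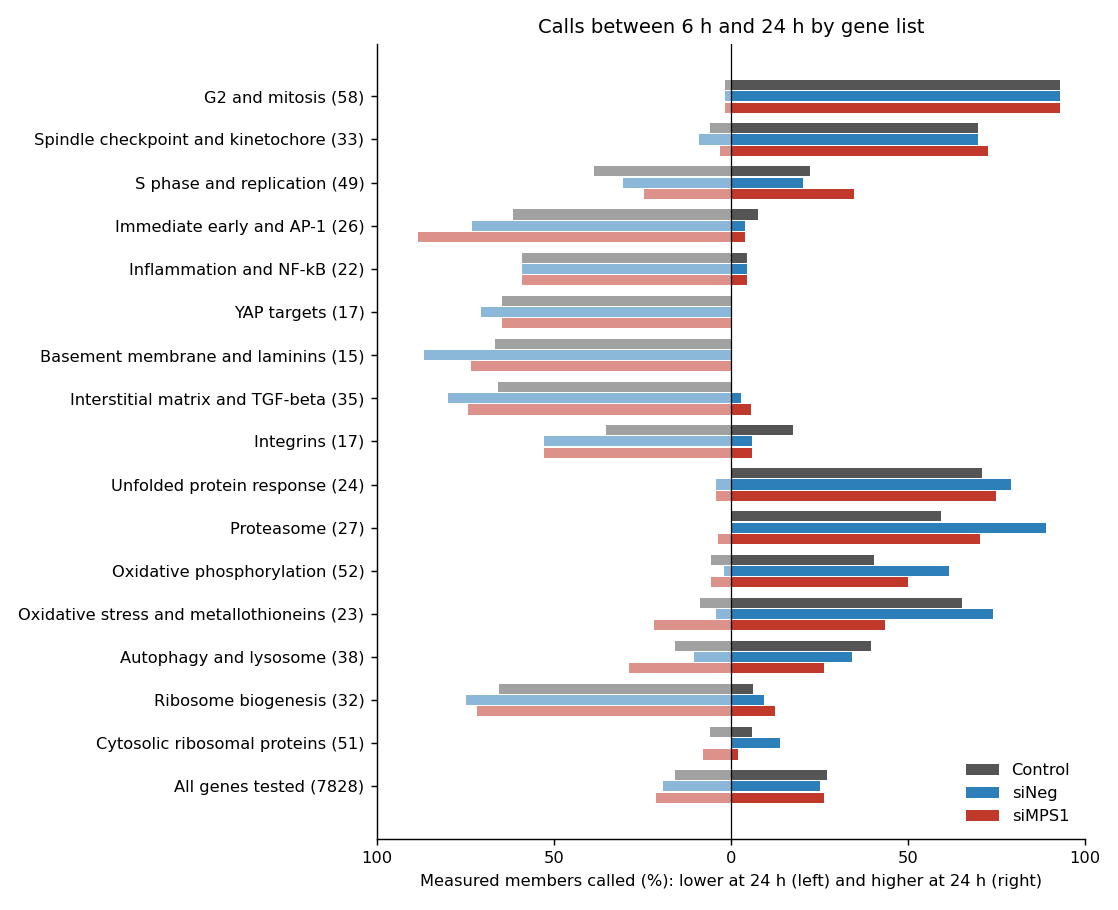
Percent of the measured members of each gene list called higher (right) or lower (left) at 24 h than at 6 h in Control, siNeg and siMPS1 cells, beside all genes tested. The G2 and mitosis list is almost wholly higher in each culture, with 54 of 58, and the immediate early list almost wholly lower in siMPS1 cells, with 23 of 26.

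Most basement membrane genes fell, and 4 of them fell less than in siNeg cells. Of 15 measured, 11 fell and 0 rose in siMPS1 cells by limma (also 0 at an unadjusted p under 0.05), against 13 falls in siNeg and 10 in Control cells, and the median difference was -0.66, against -0.87 in siNeg and -0.64 in Control cells. COL4A1, COL4A2, LAMC1 and SPARC, 4 of these 15, were called less lowered than in siNeg cells, against 1.89% of all genes called in that direction. COL4A1, a chain of type IV collagen, read 9.56 and 9.45, then 8.47 and 8.40 in siMPS1 cells and 9.37 and 9.31, then 7.78 and 7.69 in siNeg cells. The siMPS1 arrays were above all siNeg and Control arrays at both times, by more at 24 h. It fell by 1.07 against 1.61 and 1.68, a difference from siNeg of 0.54 (SE 0.11, adjusted p = 0.00856).

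LAMC1, the laminin gamma chain of most basement membranes, read 9.81 and 9.77, then 9.49 and 9.43, against 9.71 and 9.72, then 8.87 and 8.87 in siNeg cells, a difference of 0.52 (SE 0.08, adjusted p = 0.00241). COL4A2, the partner chain of COL4A1, fell by 0.71 against 1.29, a difference of 0.58 (adjusted p = 0.00253). These 3 calls held with each array left out but not with the probe sets of a gene averaged, where the differences were 0.43, 0.28 and 0.13 for COL4A1, COL4A2 and LAMC1 (adjusted p = 0.262, 0.372 and 0.354). SPARC, a collagen-binding glycoprotein, differed by 0.32 (adjusted p = 0.0371), lost on leaving out any 1 of 9 arrays (up to 0.125 without siNeg 24 h replicate 1, at 0.30).

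Interstitial matrix and TGF-beta genes showed the same fall, with 26 of 35 measured lower in siMPS1 cells, 28 in siNeg and 23 in Control cells. POSTN read 8.22 and 8.25, then 4.78 and 4.73, and LTBP1, which stores latent TGF-beta in the matrix, 8.50 and 8.62, then 6.83 and 6.74, falls of 3.47 and 1.77 that were kept. THBS1, thrombospondin 1, fell from 10.33 and 10.28 to 9.94 and 9.79 in siMPS1 cells and from 10.70 and 10.62 to 9.51 and 9.39 in siNeg cells. The siMPS1 arrays were the lower at 6 h and the higher at 24 h. The falls were 0.43 and 1.21, a difference of 0.78 (SE 0.13, adjusted p = 0.00299). FBN1, fibrillin, fell by 0.20 (adjusted p = 0.0492, lost on leaving out any 1 of 10 arrays, up to 0.245 without siMPS1 6 h replicate 2, at -0.15) against 0.78, a difference of 0.58 (SE 0.11, adjusted p = 0.00675). TGFBR2, a TGF-beta receptor, was a culture fall that reversed, from 8.21 and 8.23 to 8.37 and 8.42 in siMPS1 cells against 8.10 and 8.13 to 7.71 and 7.71 in siNeg cells.

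For TGFBR2 the siMPS1 rise of 0.18 (adjusted p = 0.0309) was lost on leaving out any 1 of 3 arrays (up to 0.147, without siMPS1 24 h replicate 2, at 0.15) and after quantile normalization (0.16, adjusted p = 0.0561), while its difference from siNeg, 0.58 (SE 0.09, adjusted p = 0.00182), held with each array left out, as did those of THBS1 and FBN1. VCAN, the proteoglycan versican, differed by 0.50 (adjusted p = 0.0148, lost on leaving out any 1 of 3 arrays, up to 0.0704 without siNeg 6 h replicate 2, at 0.43), and COL5A1 by 0.53 (adjusted p = 0.017, lost on leaving out any 1 of 4, up to 0.0747 without siNeg 24 h replicate 2, at 0.49). In the other direction COL6A2 fell by 1.63 against 1.05 in siNeg and had no called change in Control cells (-0.11), a difference from siNeg of -0.58 (adjusted p = 0.0164, lost on leaving out any 1 of 5 arrays, up to 0.0682 without siNeg 6 h replicate 2, at -0.55).

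Matrix proteases and integrins were mixed. MMP1 read 5.21 and 4.69, then 7.73 and 7.66, and rose in each culture (2.75, 2.61 and 2.596), while MMP2 fell by 1.04 and the inhibitor TIMP1 by 0.65. PLAT, tissue plasminogen activator, fell by 1.17 against 1.72 in siNeg cells, a difference of 0.56 (adjusted p = 0.0463) that was lost on leaving out any 1 of 10 arrays (up to 0.197 without siNeg 6 h replicate 1, at 0.43). ADAM10, a membrane sheddase, rose by 0.61 against 0.19 (difference 0.42, adjusted p = 0.0163, lost on leaving out any 1 of 4, up to 0.0901 without siNeg 6 h replicate 1, at 0.37). Of 17 measured genes of integrins and the proteins that link them to the cytoskeleton 9 fell, among them the integrins ITGB4, ITGA7 and ITGB5, by 1.65, 1.22 and 0.69, and the linker vinculin, VCL, by 0.56. The laminin receptor subunit ITGA6 had no called change in siMPS1 cells (0.19, adjusted p = 0.405) and fell by 1.02 in siNeg cells, a difference of 1.21 (adjusted p = 0.0102) that reached 0.0574 without siNeg 6 h replicate 1 (1.10).

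Most genes of the unfolded protein response and of the proteasome rose. Of 24 measured genes of the unfolded protein response 18 rose and 1 fell in siMPS1 cells, with a median of 0.45 against 0.61 in siNeg and 0.55 in Control cells. HSP90B1, the chaperone GRP94, read 9.34 and 9.36, then 10.65 and 10.52, and rose by 1.23 (SE 0.06, adjusted p = 9.1e-12), against 1.29 and 1.39. CRELD2, PDIA4 and MANF, which serve folding in the endoplasmic reticulum, rose by 1.07, 0.97 and 0.84. SSR3, a subunit of the translocon-associated complex, was the exception. It read 6.23 and 6.68, then 6.01 and 6.04 in siMPS1 cells, against 6.83 and 6.56, then 7.66 and 7.61 in siNeg and 6.87 and 6.88, then 7.24 and 7.29 in Control cells.

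SSR3 thus fell by 0.42 (adjusted p = 0.00988, but 0.23 without siMPS1 6 h replicate 2, at -0.20) where siNeg rose by 0.94 and Control by 0.39, and at 24 h both siMPS1 arrays lay more than 1 log2 unit below every other. The difference from siNeg was -1.37 (SE 0.18, adjusted p = 0.000375) and from Control -0.81 (adjusted p = 0.00478). The call against siNeg held with each array left out.

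Of 27 proteasome subunits 19 rose and 1, PSMB1, fell in siMPS1 cells (-0.24, adjusted p = 0.00563, but 0.11 without siMPS1 6 h replicate 2, at -0.16), against 24 rises in siNeg and 16 in Control cells, the last of which became 8 rises and 4 falls under median centring. PSMC3, PSMD4 and PSMB5 rose by 0.58, 0.52 and 0.48. PSMB2 was weakened, at 0.20 against 0.57 (difference -0.37, SE 0.07, adjusted p = 0.00856), a call not made with probe sets averaged (-0.28, adjusted p = 0.172). Of 52 genes of oxidative phosphorylation 26 rose and 3 fell, against 32 rises in siNeg and 21 in Control cells. NDUFA8 and NDUFV2 of complex I rose by 0.58 and 0.50. Under median centring the Control cells had 6 rises and 12 falls in this list, against 21 and 3 as deposited, so its direction there turned with the scaling. COX6C fell by 0.48, and it and NDUFA3 differed from siNeg by -0.33 and -0.77 (adjusted p = 0.0403 and 0.0131), lost on leaving out any 1 of 11 and 3 arrays (up to 0.147 without siMPS1 6 h replicate 2, at -0.29, and 0.0746 without siNeg 6 h replicate 1, at -0.67).

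Ribosome biogenesis genes fell in 23 of 32 measured cases, with 24 in siNeg and 21 in Control cells. MYC, their transcriptional activator, fell by 0.85, and the nucleolar factors DDX21 and WDR3 by 0.57 and 0.73. By limma 0 members differed from siNeg (5 at an unadjusted p under 0.05), where 3.69% of all genes did. Of the list's 23 culture changes 20 were kept. The cytosolic ribosomal proteins gave 1 rise and 4 falls of 51, and the sign of their median, -0.07, turned under median centring.

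Of 23 oxidative stress genes and metallothioneins, 5 differed from siNeg cells, all downward, a direction called for 1.8% of all genes. HMOX1, which degrades haem, read 9.30 and 9.31, then 9.83 and 9.66 in siMPS1 cells, against 9.21 and 9.18, then 10.18 and 10.34 in siNeg and 9.10 and 9.05, then 9.92 and 9.999 in Control cells. It was weakened, rising by 0.44 against 1.07 (difference -0.63, SE 0.11, adjusted p = 0.00299). MT2A, a metal-binding metallothionein, read 10.81 and 10.82, then 10.54 and 10.61 in siMPS1 cells and 10.51 and 10.46, then 10.89 and 10.81 in siNeg cells. Its siMPS1 arrays were the higher at 6 h and the lower at 24 h. It fell by 0.23 (adjusted p = 0.00904, but 0.0721 without siMPS1 24 h replicate 1, at -0.20) where siNeg rose by 0.36 (difference -0.60, SE 0.10, adjusted p = 0.00241).

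MT1F did likewise, with a fall of 0.25 against a rise of 0.37 (difference -0.62, adjusted p = 0.00119), and MT1E and MT1X were the other members called. The metallothioneins are near-identical copies, and their probe sets may read each other's RNA, so these calls are not separate observations. For MT1E the difference of -0.64 was not called with its probe sets averaged (-0.31, adjusted p = 0.118). The calls of HMOX1, MT2A and MT1F held with each array left out. The list as a whole had 10 rises in siMPS1 cells, against 17 in siNeg and 15 in Control cells, but 12, 17 and 7 under median centring, so its order against Control turned with the scaling. CAT, GSR and TXN had kept rises of 0.88, 0.86 and 0.41.

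Of 38 autophagy and lysosome genes, 5 differed downward and 1 upward from siNeg cells, directions called for 1.8% and 1.89% of all genes. The downward count was 6 after quantile normalization and 2 after median centring, where 151 and 88 of all genes differed downward, so it depends on the scaling. Of these 38, 10 rose and 11 fell in siMPS1 cells, where 26.4% of all genes tested rose and 21.1% fell. In siNeg cells 13 rose and 4 fell, where 25.2% and 19.1% of all genes did. The medians were -0.04 in siMPS1 and 0.14 in siNeg cells, the first of which turned to 0.02 after quantile normalization and 0.07 after median centring. Of 11 genes of cholesterol efflux and lysosomal export, a list that shares LAMP2 with the last, 4 rose and 2 fell. Among them NPC2, which hands cholesterol out of the lysosome, read 9.86 and 9.93, then 9.10 and 9.07 in siMPS1 cells, against 9.71 and 9.73, then 9.87 and 9.88 in siNeg and 9.75 and 9.76, then 9.80 and 9.89 in Control cells. It fell by 0.81 (SE 0.06, adjusted p = 2.08e-09) in siMPS1 cells and in neither other culture, a difference of -0.97 from siNeg (SE 0.08, adjusted p = 5.33e-06) and -0.90 from Control (adjusted p = 3.29e-06). The call held with each array left out.

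ABCA1 of that list, which exports cholesterol from cells, went the other way. It read 4.74 and 5.08, then 5.68 and 5.43 in siMPS1 cells and 5.44 and 5.73, then 4.84 and 3.94 in siNeg cells, so siMPS1 was the lower at 6 h and the higher at 24 h. The difference from siNeg was 1.84 (SE 0.36, adjusted p = 0.00772), while that from Control, 0.97, was not called (adjusted p = 0.0707). CTSZ, a cathepsin, and WIPI2, of the autophagosome membrane, fell by 0.57 and 0.70 and differed from siNeg by -0.73 and -0.82 (adjusted p = 0.00109 and 0.00241), but averaging probe sets took both differences to -0.01 and -0.38 (adjusted p = 0.993 and 0.349). LAMP2, the lysosome membrane protein, rose by 0.43 on its brightest probe set and fell by 0.26 with its probe sets averaged, so its direction depends on the probe set. WIPI1 rose by 1.90, 1.89 and 2.04 in siMPS1, siNeg and Control cells.

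Sterol synthesis genes had 9 rises and 6 falls of 23 in siMPS1 cells, against 12 and 3 in siNeg and 12 and 2 in Control cells. By limma 0 differed from siNeg (3 at an unadjusted p under 0.05), where 3.69% of all genes did. From Control 7 differed downward, a direction called for 10.5% of all genes. Under median centring the rises were 12 in siMPS1, 12 in siNeg and 10 in Control cells, so the lower count in siMPS1 cells was not seen under that scaling. ELOVL6, HSD17B7, FDPS and SC5D rose by 1.42, 1.15, 0.68 and 0.64. Among glycolytic and hypoxia genes PKM, pyruvate kinase, read 9.96 and 10.14, then 9.02 and 9.0 in siMPS1 cells, against 9.84 and 9.88, then 9.66 and 9.54 in siNeg and 9.55 and 9.47, then 9.83 and 9.94 in Control cells. It fell by 1.04 in siMPS1 and 0.26 in siNeg cells and rose by 0.37 in Control cells. The difference from siNeg was -0.78 (SE 0.10, adjusted p = 0.000253), held with each array left out, and from Control -1.41 (adjusted p = 2.91e-07). ALDOA, aldolase, fell by 0.35 and differed from siNeg by -0.53 (adjusted p = 0.00854), while PFKM rose in all 3 cultures, by 1.08, 1.08 and 1.24.

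Over all genes, 289 (3.69%) differed between siMPS1 and siNeg cells in their change from 6 to 24 h, 148 upward (1.89%) and 141 downward (1.8%). Against Control cells 1405 (17.9%) differed, 581 upward (7.42%) and 824 downward (10.5%), and median centring turned that split to 1907 upward and 324 downward. The differences against siNeg and Control use the same 4 siMPS1 arrays. The count against siNeg was 126 without siNeg 24 h replicate 1, 152 without its replicate 2, 132 and 161 without siNeg 6 h replicates 1 and 2, and 159 without siMPS1 6 h replicate 2. Between siNeg and Control cells 452 genes (5.77%) differed in their change, 146 upward (1.87%) and 306 downward (3.91%).

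**Figure D4:**
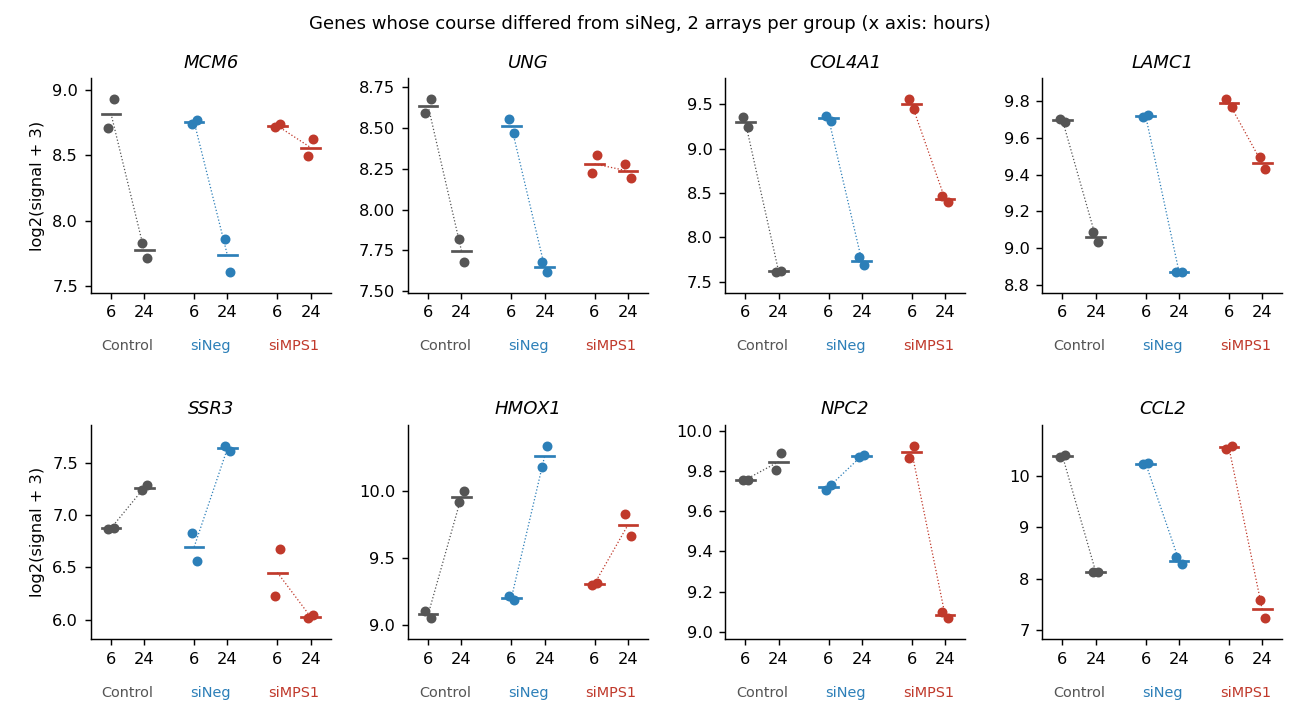
Level (log2(signal + 3), y axis) of 8 genes whose change from 6 to 24 h differed between siMPS1 and siNeg cells, by culture and time, with points for arrays, bars for group means and dotted lines joining the means. MCM6 and UNG stay near their 6 h level in siMPS1 cells, SSR3 and NPC2 are lowest in siMPS1 cells at 24 h, and CCL2 is lowest there after starting highest.

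For 184 of the 289 genes siMPS1 and siNeg cells lay farther apart at 24 h than at 6 h, and for 105 they lay farther apart at 6 h. The gap between the 2 cultures was called at 24 h for 189, at 6 h for 99, at both for 25 and at neither for 26. CCNB2 belonged to the first kind, with a gap of 0.03 at 6 h and -1.02 at 24 h. For DDAH1, an enzyme that clears methylarginines, it was -0.25 and -1.17. ISOC2 belonged to the second kind, with a gap of 0.57 at 6 h and -0.35 at 24 h. The gaps of KIF11, -0.49 at 6 h and 0.48 at 24 h, were nearly equal in size and opposite in sign. Such genes fall into either kind by a small margin.

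**Figure D5:**
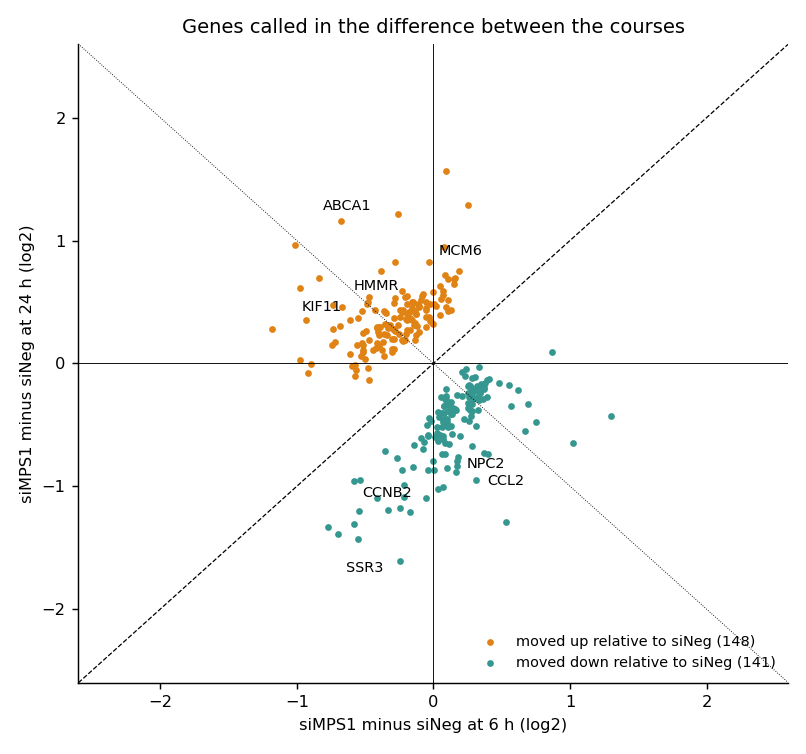
siMPS1 minus siNeg at 6 h (x axis, log2) against 24 h (y axis, log2) for the 289 genes whose change differed between the 2 cultures, 1 point per gene, coloured by the direction of the difference, with a dashed line for equal gaps and a dotted line for equal gaps of opposite sign. Of these, 184 lie farther from 0 on the y axis than on the x axis.

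Of the 31 weakened changes, 15 were rises and 16 falls. AKTIP, an adaptor of vesicle transport, rose by 0.55 in siMPS1 cells (5.82 and 5.46, then 6.21 and 6.19) against 1.78 in siNeg cells, a difference of -1.23 (SE 0.18, adjusted p = 0.00097) that held with each array left out. AKR1C1, an aldo-keto reductase with close paralogs, and RPRM, reprimo, differed by -0.66 and -0.95 (adjusted p = 0.0233 and 0.0307), and each was lost on leaving out any 1 of 5 arrays (up to 0.101 without siNeg 6 h replicate 2, at -0.55, and 0.127 without siNeg 6 h replicate 2, at -0.74). For FGF1 the weaker fall (difference 1.47, adjusted p = 0.0457) was lost on leaving out any 1 of 9 arrays (up to 0.138 without siNeg 6 h replicate 1, at 1.47), and at 24 h it read only 3.13 and 4.08 in siMPS1 and 1.99 and 2.08 in siNeg cells, near the floor set by the pseudocount.

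Of the 45 lost changes, 19 were rises and 26 falls. COPE, a coatomer subunit of Golgi transport, read 6.86 and 6.84, then 6.83 and 6.71 in siMPS1 cells and rose by 0.71 in siNeg and 0.68 in Control cells, a difference from siNeg of -0.79 (SE 0.14, adjusted p = 0.00457) that held with each array left out. RPS6KA5, the kinase MSK1, read 4.68 and 4.71, then 5.10 and 4.99 against 6.08 and 6.02 in siNeg cells at 24 h (difference -1.07, adjusted p = 0.0164, lost on leaving out either of 2 arrays, up to 0.0776 without siNeg 6 h replicate 1, at -0.97). ISOC2 differed by -0.92 (adjusted p = 0.0118, but 0.0672 without siNeg 24 h replicate 1, at -0.83). Among the lost falls, NREP read 6.54 and 6.87, then 6.67 and 6.82 in siMPS1 cells against 6.45 and 6.44, then 5.48 and 5.43 in siNeg cells (difference 1.04, adjusted p = 0.00253, but 0.70 and 0.26 with probe sets averaged). INAVA, a lost rise, and PPP4R3B, a lost fall, differed by -1.72 and 1.47 (adjusted p = 0.0364 and 0.0303). Their calls ended on leaving out any 1 of 7 and 6 arrays (up to 0.117 without siNeg 6 h replicate 1, at -1.65, and 0.106 without siMPS1 6 h replicate 2, at 1.36).

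The 155 reversed changes are culture changes whose siMPS1 course was called opposite to Control, and 29 of them also differed from siNeg cells. In siNeg cells 40 of the 155 were called opposite to Control as well, 102 were not called and 13 went with Control, and 2 exceeded 2-fold in Control. SNRNP70, a splicing protein, fell by 0.45 in siMPS1 and 0.43 in siNeg cells and rose by 0.87 in Control cells, so its reversal was shared by both transfected cultures. IMP3 rose by 0.31 in siMPS1 cells and fell by 0.71 in Control cells, with 0.12 in siNeg cells. SIRT1, a deacetylase, read 6.64 and 6.63, then 7.08 and 6.90, and rose by 0.36 where Control fell by 0.50 (difference from siNeg 0.52, adjusted p = 0.0404, lost on leaving out any 1 of 9 arrays, up to 0.159 without siNeg 6 h replicate 1, at 0.46), and without siMPS1 24 h replicate 1 the rise had an adjusted p of 0.0719. MICAL1, HECTD3 and GNAI1 lost their siMPS1 calls on leaving out any 1 of 4, 3 and 10 arrays (up to 0.0927 and 0.189, both without siMPS1 6 h replicate 2, at -0.45 and -0.34, and 0.154 without siMPS1 24 h replicate 1, at 0.30), and the pseudogene NACA4P, whose probe set may read its parent gene, fell by 0.98.

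Of the siMPS1 changes, 65 rises and 73 falls were called larger than in both other cultures, by tests that share the siMPS1 arrays. HNMT, histamine N-methyltransferase, read 5.29 and 5.38, then 7.60 and 7.30, and rose by 2.12 against 1.01 in siNeg and 1.09 in Control cells (difference from siNeg 1.10, SE 0.19, adjusted p = 0.00391), which held with each array left out. ANK3, an ankyrin, and the chromatin protein HMGB3 rose by 1.97 and 2.04 and differed from siNeg by 1.13 and 0.63 (adjusted p = 0.0181 and 0.0499), lost on leaving out any 1 of 4 and 12 arrays (up to 0.101 without siNeg 6 h replicate 1, at 0.97, and 0.166 without siNeg 24 h replicate 1, at 0.57). TXNIP differed from siNeg by 0.87 (adjusted p = 0.0135, lost on leaving out either of 2 arrays, up to 0.0687 without siNeg 6 h replicate 2, at 0.70). Of 27 interferon-induced genes 6 rose and 12 fell in siMPS1 cells, with a median of -0.39, against 7 and 8 in siNeg and 6 and 11 in Control cells. Among the 6, IFI44 and IFI16 rose by 1.81 and 1.47, against 1.25 and 0.92 in siNeg cells, calls that held with each array left out but not with probe sets averaged (0.55 and 0.41, adjusted p = 0.103 and 0.0544). ANP32A, enlarged against siNeg alone, rose from 7.72 and 7.68 to 9.25 and 9.33 (difference 0.61, but 0.21 and adjusted p = 0.362 with probe sets averaged).

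Among the falls larger than in both others, DDAH1 read 9.92 and 9.95, then 8.23 and 8.20 in siMPS1 cells, against 10.16 and 10.20, then 9.35 and 9.43 in siNeg and 10.36 and 10.24, then 9.10 and 9.14 in Control cells. It fell by 1.72, 0.79 and 1.18, a difference from siNeg of -0.93 (SE 0.08, adjusted p = 7.24e-06) and from Control of -0.54 (adjusted p = 0.000422). LGALS3, galectin 3, fell from 10.86 and 10.93 to 9.22 and 9.23, more than in siNeg cells (difference -0.46, SE 0.09, adjusted p = 0.00541). Both calls held with each array left out. P3H2, a collagen prolyl hydroxylase, and SDC4, syndecan 4, fell by 2.06 and 1.74, against 1.02 and 1.21 in siNeg cells, differences lost on leaving out any 1 of 5 and 3 arrays (up to 0.0914 without siNeg 6 h replicate 1, at -0.96, and 0.069 without siNeg 24 h replicate 1, at -0.51).

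The p53 targets and the list of CDK inhibitors and G1 cyclins gave 0 called differences from siNeg cells by limma, among 21 and 15 measured (4 and 3 at an unadjusted p under 0.05). Of all 7828 genes 3.69% were called, so 0 calls in lists of this size does not set them apart. At an unadjusted p under 0.05, 762 of all genes differed upward and 713 downward. CCNG1 and GDF15, both p53 targets, rose by 2.0 and 1.15 in siMPS1 cells, against 1.70 and 1.28 in siNeg cells, while PLK2 and PLK3 fell by 1.70 and 1.23. CDKN1A, the p21 inhibitor that p53 induces, had no called change in siMPS1 cells (-0.18, adjusted p = 0.325). The CDK inhibitor CDKN1B rose by 1.08, and cyclin D1, CCND1, and the kinase CDK6 fell by 0.63 and 1.15. Of 27 recombination and Fanconi genes 10 rose and 2 fell, with CHEK1 and RAD50 up by 0.78 and 0.87 and TOPBP1 down by 0.68.

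Of 17 BCL2 family and apoptosis genes 6 rose and 4 fell in siMPS1 cells, not far from the 26.4% and 21.1% of all genes tested. All 8 of their culture changes were kept. The survival factors MCL1 and BCL2L1 fell by 0.96 and 0.97, and the initiator caspases CASP8 and CASP9 rose by 1.13 and 1.03. CYCS, cytochrome c, read 11.47 and 11.51, then 11.34 and 11.27 in siMPS1 cells and 11.36 and 11.35, then 11.63 and 11.60 in siNeg cells. It was the 1 member that differed from siNeg, by -0.44 (SE 0.08, adjusted p = 0.00582), and the call held with each array left out.

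Some of the calls above ended under another setting, all of them with the sign kept except LAMP2. Averaging the probe sets of a gene also ended the differences from siNeg of FGF1 (0.81, adjusted p = 0.316), RPS6KA5 (-0.62, 0.27), PLAUR (0.10, 0.551), WWC1 (0.55, 0.123), ADAM10 (0.19, 0.334) and COL6A2 (-0.41, 0.234). A pseudocount of 11 took FGF1 to 0.66 (adjusted p = 0.161) and HMMR to 0.86 (adjusted p = 0.06). Fitting without an intensity trend, keeping all dim probe sets or fitting the compared groups alone left the estimates in place and raised adjusted p to between 0.05 and 0.14 for the less stable differences named above. Median centring ended the differences of HMMR, RPRM, KIF4A, PLAT, MAD1L1, TEAD1, COX6C and SIRT1, with adjusted p from 0.0505 to 0.114. Among siMPS1 changes, averaging probe sets took CTSZ to -0.14 (adjusted p = 0.581), and median centring took HECTD3 to -0.32 (adjusted p = 0.106), MICAL1 to -0.37 (adjusted p = 0.0755), H2BC21 to -0.70 (adjusted p = 0.069), CYCS to -0.07 (adjusted p = 0.312), FBN1 to -0.09 (adjusted p = 0.354), MT2A to -0.13 (adjusted p = 0.094), MT1F to -0.15 (adjusted p = 0.0802) and PSMB1 to -0.14 (adjusted p = 0.0956).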

How the data were processed

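The authors deposited 1 table of log2 signals from 18 Affymetrix arrays, made with MAS5 per the submitters' processing notes. That the log base is 2 follows from the values themselves, since 2 raised to them had a 2% trimmed mean of 100.122 to 100.134 on every array. MAS5 scales each array to a common mean, so levels are relative to the array's total. Signals were returned to the linear scale, 3 was added and log2 taken. The dimmest 40% of probe sets were left out, probe sets naming 1 gene by the platform annotation were kept, and the brightest stood for each gene, leaving 7828 genes. Group means over all 18 arrays were fitted with limma 3.58.1 in R 4.3.3 (intensity trend, 9 residual and 8.57 prior degrees of freedom), a procedure tested on simulated data. Array number limits the precision.

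Genes were named by rule: TTK, the 12 largest called rises and falls in siMPS1 cells with separate arrays, the 6 largest differences from siNeg in each direction, up to 4 per class and direction of culture change, the 6 largest changes beyond both cultures, and per list the 4 members with the smallest p. RFC4, CDC25A, MYBL2, KIF22, INCENP, IER3, TNFAIP2, ETV5, PSMB1, MT1X, CDKN1A, CCNA2, CDK1 and KIF23 were named after their values were seen. The members, lists and settings were chosen with earlier results of these data known.

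Alternatives were other pseudocounts and filters, quantile normalization, median centring, averaged probe sets, no intensity trend, a replicate block, a fit of the compared arrays alone, a fold limit, other definitions of a culture change, and each of 12 arrays left out. Same-numbered arrays of different groups had correlations of deviations from -0.14 to 0.10 over 36 pairs of groups, so the numbers were not taken as pairs. Promoters are from RefSeq (GRCh38.p14) and cover 6545 of the tested genes.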

Additional observations from a re-analysis of the deposited data

Results flagged for a closer look

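The following results stand out because the change from 6 to 24 h differed between siMPS1 cells and another culture, by a limma test of the difference itself. Against siNeg cells 289 genes differed and against Control cells 1405, with the 4 siMPS1 arrays in both. On the log2 scale, siMPS1 minus siNeg, genes shifted upward were ATP5MC2P1 (1.98), ABCA1 (1.84), MED12 (1.59), SIPA1L3 (1.53), FGF1 (1.47), PPP4R3B (1.47), ANK3 (1.13), HNMT (1.10), NREP (1.04), HMMR (0.98), TXNIP (0.87), MCM6 (0.85), UNG (0.82), HMGB3 (0.63), ANP32A (0.61), IFI44 (0.56), PLAT (0.56), COL4A1 (0.54) and COL5A1 (0.53). ATP5MC2P1 is a pseudogene and its probe set may read the parent gene.

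Genes shifted downward were ZNF747 (-1.82), INAVA (-1.72), KLHL12 (-1.68), SSR3 (-1.37), CCL2 (-1.26), AKTIP (-1.23), RPS6KA5 (-1.07), CCNB2 (-1.06), P3H2 (-1.04), RPRM (-0.95), DDAH1 (-0.93), ISOC2 (-0.92), COPE (-0.79), GADD45B (-0.70), AKR1C1 (-0.66), SDC4 (-0.54), LGALS3 (-0.46) and KIF4A (-0.42). Several of the largest estimates belong to dim probe sets. MED12 read 2.96 and 3.05 at 6 h in siMPS1 cells, and its difference became 0.36 (adjusted p = 0.82) after quantile normalization. ZNF747, KLHL12, SIPA1L3 and ATP5MC2P1 lost their calls on leaving out any 1 of 11, 9, 8 and 6 of the 12 arrays, and MED12 any 1 of 7.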

How the results depend on the processing

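Counts of called genes kept within 1.5 times under both pseudocounts, both filters, quantile normalization, averaged probe sets and the fit of the compared groups alone. Median centring gave 2231 differences from Control and 233 reversed changes. Without an intensity trend 136 genes differed from siNeg and 37 changes were weakened or lost. A fold limit of 2 gave 697 changes in siMPS1, 557 in Control and 589 in siNeg cells, 32 differences from siNeg, 217 from Control, and 314 kept, 7 weakened or lost and 0 reversed changes. Taking culture changes from Control and siNeg together gave 251 weakened or lost and 13 reversed. These were classed against Control, whose arrays also chose the genes. Culture changes at an adjusted p under 0.01 gave 85 reversed. The cause was not tested, beyond fewer genes passing the stricter limits.

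With each of 12 arrays left out, siMPS1 cells had 3116 to 3668 changes, Control 2635 to 3426 and siNeg 2712 to 3541. Differences from siNeg ran from 126 to 279 and from Control from 793 (without Control 24 h replicate 2) to 1318, with 899 without siMPS1 6 h replicate 2. Kept changes ran from 1713 to 2043, weakened or lost from 36 to 76 and reversed from 84 to 147, with 84 without Control 24 h replicate 2 and 100 without Control 6 h replicate 2. Weakened or lost numbered 36 and 41 without siNeg 24 h replicates 1 and 2, 39 and 45 without siNeg 6 h replicates 1 and 2, and 43 without siMPS1 6 h replicate 2. Of the named siMPS1 calls 199 of 225 held with each array left out, and of the named differences from siNeg 37 of 92. In every setting tried, a fold limit among them, 105 and 7 held, and 105 and 6 held in both respects. With probe sets averaged LAMP2 turned to -0.26 in siMPS1 cells (adjusted p = 0.0101) and -0.015 against siNeg (adjusted p = 0.96).

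A replicate block by array number gave 3716 changes in siMPS1, 3384 in Control and 3472 in siNeg cells, 280 differences from siNeg, 1386 from Control, and 2032 kept, 75 weakened or lost and 150 reversed changes. Having 2 arrays per group and dim signals limits what could be called, and a change not called is not shown to be absent.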

Other observations

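Other gene groups followed the same interval in siMPS1 cells. Of 28 ATF4 and amino acid supply genes 6 rose and 10 fell, against 11 and 9 in siNeg cells. ASNS, asparagine synthetase, and the amino acid transporter SLC7A5 fell by 1.0 and 1.10, while DDIT3, the stress factor CHOP, rose by 1.18. CHAC1, which degrades glutathione, read 6.30 and 6.22, then 5.0 and 4.70 in siMPS1 cells and 6.03 and 6.16, then 5.87 and 5.59 in siNeg cells, a difference in change of -1.05 (adjusted p = 0.0265, lost on leaving out any 1 of 6 arrays, up to 0.12 without siNeg 24 h replicate 1, at -0.91). Heat shock chaperones gave 10 rises and 5 falls of 20, against 5 and 1 in siNeg and 5 and 5 in Control cells, with HSPE1 and DNAJB6 up by 0.75 and 0.77. Of all genes tested 26.4% rose and 21.1% fell in siMPS1 cells. Median centring gave 12 rises and 4 falls of the chaperones in siMPS1, 7 and 1 in siNeg and 1 and 9 in Control cells. The chaperones had 0 called differences from siNeg by limma (7 at an unadjusted p under 0.05), against 3.69% of all genes.

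Glial and mesenchymal genes gave 5 rises and 10 falls of 21, and 0 differed from siNeg by limma (5 at an unadjusted p under 0.05), against 3.69% of all genes. FABP7, the radial glia fatty acid binding protein, read 9.99 and 9.92, then 8.09 and 7.74, and fell by 2.04, against 2.04 in siNeg and 2.26 in Control cells. EGFR, the receptor often amplified in glioblastoma, fell by 1.22 in siMPS1 and 1.08 in siNeg cells and had no called change in Control cells (-0.17, adjusted p = 0.0942). ACTN4 and DICER1 likewise fell in both transfected cultures, by 1.13 and 0.78 in siMPS1 cells and 0.89 and 0.98 in siNeg cells, with 0.03 and -0.06 in Control cells. Clock genes gave 3 rises and 5 falls of 13, with NR1D2 up by 1.40 and CSNK1D down by 1.27.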
